A study of Mus musculus with 6 samples.

Results

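The 10 genes described here encode chromatin regulators of the germinal centre B cell: Ezh2, Eed, Suz12, Crebbp, Ep300, Kdm6b, Kdm1a, Hdac3, Dnmt1 and Tet2. They were taken by symbol from the deposited table of 23412 rows. All 10 had a row, and all 10 passed the low-count filter that left 18767 genes to test. RNA was sequenced from splenic germinal centre B cells sorted as positive for B220, GL7 and Fas (CD95) on day 10 after intraperitoneal immunization with sheep red blood cells. Control mice were Cg1-cre(+/-), written DAF-Tg(+/+) at the transgene locus in the labels' protocol. The other mice, called DAF-TM here, were Cg1-cre(+/-);R26-DAF-TM(fl/fl). All mice therefore carried Cg1-cre, a Cre recombinase driven from the immunoglobulin gamma 1 heavy chain locus, and the DAF-TM mice also carried a Cre-dependent cassette for DAF, a membrane inhibitor of complement, at Rosa26. The share of cells that recombined the cassette, the age, sex and strain of the mice, and whether mice were pooled are not stated by the labels or the file.

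The labels give 3 replicates per group, but DAF-TM replicates 2 and 3 have identical counts throughout the table. As no row differed between them, they were treated as 1 sample, DAF-TM library 2, and 3 control and 2 DAF-TM libraries were compared. Their totals ran from 7257339 to 12783965 counts. Cd55, the mouse gene for DAF, stood at 23.5 to 34.4 CPM in the controls, against 713 and 726 in the DAF-TM libraries, the direction their labels give. CPM here are counts scaled to library size with TMM factors, which ran from 0.92 to 1.11. The libraries differ in the sex of the mice within a group. Xist, from the inactive X chromosome of females, was at 744 CPM before scaling in control library 1, 2.42 and 2.89 in control libraries 2 and 3, 291 in DAF-TM library 1 and 797 in DAF-TM library 2. DAF-TM library 1 also held Y-linked reads (284 CPM) and DAF-TM library 2 none (0 CPM), so these 2 libraries were not wholly from the same mice. Control libraries 2 and 3 held Y-linked reads (653 and 483 CPM) and control library 1 nearly none (0.104 CPM), so library 1 came from other mice than these. Whether control libraries 2 and 3 came from separate mice, or the DAF-TM libraries shared any, is not stated. Part of the spread that p-values measure may therefore be technical.

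Germinal centre B cells divide fast and hold many genes in a silent but recoverable state. Polycomb repressive complex 2 (PRC2), built on EZH2, EED and SUZ12, methylates lysine residues of histone H3 and keeps plasma cell and cell cycle inhibitor genes silent in these cells. The transcription factor BCL6 recruits corepressors with the deacetylase HDAC3 and the demethylase LSD1 (Kdm1a), which remove active marks at enhancers. CBP (Crebbp) and p300 (Ep300) are acetyltransferases that write those marks, and KDM6B removes the Polycomb methyl mark. DNMT1 copies DNA methylation after replication, and TET2 oxidizes methylated cytosine as a step to its removal. Genes for several of these proteins are recurrently mutated in lymphomas that arise from germinal centre B cells.

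The sequence before the RefSeq starts of the PRC2 core genes is shown first, since these 3 genes make 1 complex. RefSeq promoter windows (GRCm38.p6) were found for 8 of the 10 genes, and none was found for Kdm6b and Hdac3. The 250 bases before each start were searched on both strands for TTTCCCGC, TTTCGCGC, TTTGCCGC or TTTGGCGC (E2F type), CCAAT (NF-Y type), GGGCGG (Sp1 type) and CCGGAAG (ETS type), each overlap counted. The stretches below are the longest parts of these windows outside annotated exons of the gene itself, on the gene's strand, with every match in capitals. They lie at chr6:47595059-47595183 (minus strand) for Ezh2, chr7:89980984-89981226 (minus strand) for Eed and chr11:79992856-79993105 (plus strand) for Suz12. The Ezh2 stretch lies before the RefSeq start but inside the GENCODE M21 span of the gene (chr6:47530139-47595341). The windows of Tet2, Crebbp, Ep300 and the more downstream Dnmt1 starts also lie inside the GENCODE spans of their genes.
Ezh2: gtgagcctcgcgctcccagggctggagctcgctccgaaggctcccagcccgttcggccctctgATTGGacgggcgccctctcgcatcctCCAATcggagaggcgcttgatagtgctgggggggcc
Eed: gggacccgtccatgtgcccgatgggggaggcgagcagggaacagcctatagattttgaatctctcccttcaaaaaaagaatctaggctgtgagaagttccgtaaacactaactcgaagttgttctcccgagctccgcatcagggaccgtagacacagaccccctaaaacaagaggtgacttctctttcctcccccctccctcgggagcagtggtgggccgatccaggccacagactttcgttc
Suz12: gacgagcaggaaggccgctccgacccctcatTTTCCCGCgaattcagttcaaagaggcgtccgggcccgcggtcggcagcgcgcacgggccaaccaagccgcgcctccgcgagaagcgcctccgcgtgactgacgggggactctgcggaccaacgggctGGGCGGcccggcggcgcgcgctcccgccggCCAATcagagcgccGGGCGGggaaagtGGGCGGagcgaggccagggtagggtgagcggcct
The Ezh2 stretch holds 2 CCAAT matches. The Eed stretch holds no match to any of these letters, and the Suz12 stretch holds 1 E2F-type, 1 CCAAT and 3 GGGCGG matches. Over the 10 member windows (Dnmt1 has 3 starts), an E2F-type match lay in 2, those of Suz12 and of 1 Dnmt1 start, and in 1.86% of all 32851 windows. CCAAT lay in 5 of the 10 (33.9% of all), GGGCGG in 5 (32.7%) and CCGGAAG in 0 (6.91%). The member windows held a median of 24 CpG dinucleotides, from 2 at the most upstream Dnmt1 start to 51 at Tet2, against a median of 6 over all windows.

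Levels were compared between genes per kilobase of coding-transcript exon (GENCODE M21), as CPM per kb in the controls (mean ± SD, n = 3). Eed was highest at 152 ± 19.5. Hdac3 (74.3 ± 3.68), Dnmt1 (73.9 ± 12.6) and Ezh2 (62.5 ± 5.37) followed, and these 3 did not differ beyond the spread of Dnmt1. Suz12 stood at 45.8 ± 7.03, Kdm1a at 27.4 ± 1.75 and Ep300 at 19.2 ± 1.71. Crebbp was lower at 6.78 ± 1.23, and Tet2 (2.7 ± 0.42) and Kdm6b (1.23 ± 0.09) were lowest. The DAF-TM libraries gave the same order except that Dnmt1 (69.4 ± 16.3, SD, n = 2) and Hdac3 (68.7 ± 3.85) changed places, by less than their spread. The order depends on the length used: by control mean CPM Dnmt1 was highest (465), and Ep300 (183) lay above Ezh2 (175) and Hdac3 (151). Per length, the 3 PRC2 core genes were all among the 5 highest of the 10 and Kdm6b was the lowest. Its paralog Kdm6a, which encodes a demethylase for the same mark, stood at 28.1 ± 10.5 in the controls, near Kdm1a.

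No member passed the test between DAF-TM and control libraries. In edgeR's quasi-likelihood test with Benjamini-Hochberg adjustment over all genes, 0 of 10 were called, none had an unadjusted p under 0.05, and the lowest adjusted p was 0.93, that of Kdm6b. Over all 18767 genes 77 were called, or 0.41% (0.373% higher and 0.0373% lower), and 5.74% had an unadjusted p under 0.05, so a count of 0 among 10 lies near the background. DESeq2 and limma-voom also called 0 members, with 0 at an unadjusted p under 0.05. Of the log2 fold changes (DAF-TM minus control) 4 were positive and 6 negative, with a median of -0.06 against 0.03 over all genes tested (5 and 5 with upper-quartile factors, median 0.0042). Their median size without sign was 0.17, against 0.19 for all genes tested and 0.13 for the 9049 with a mean of at least 10 CPM. The 95% intervals left out a rise or fall of 1.5-fold for 8 members, all but Kdm6b and Tet2, and of 2-fold for 9, all but Kdm6b. The count over all genes was 43 without control library 1, 44 without control library 3, 14 without DAF-TM library 1 and 118 without DAF-TM library 2, while that of members was 0 in each of these fits.

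**Figure D1:**
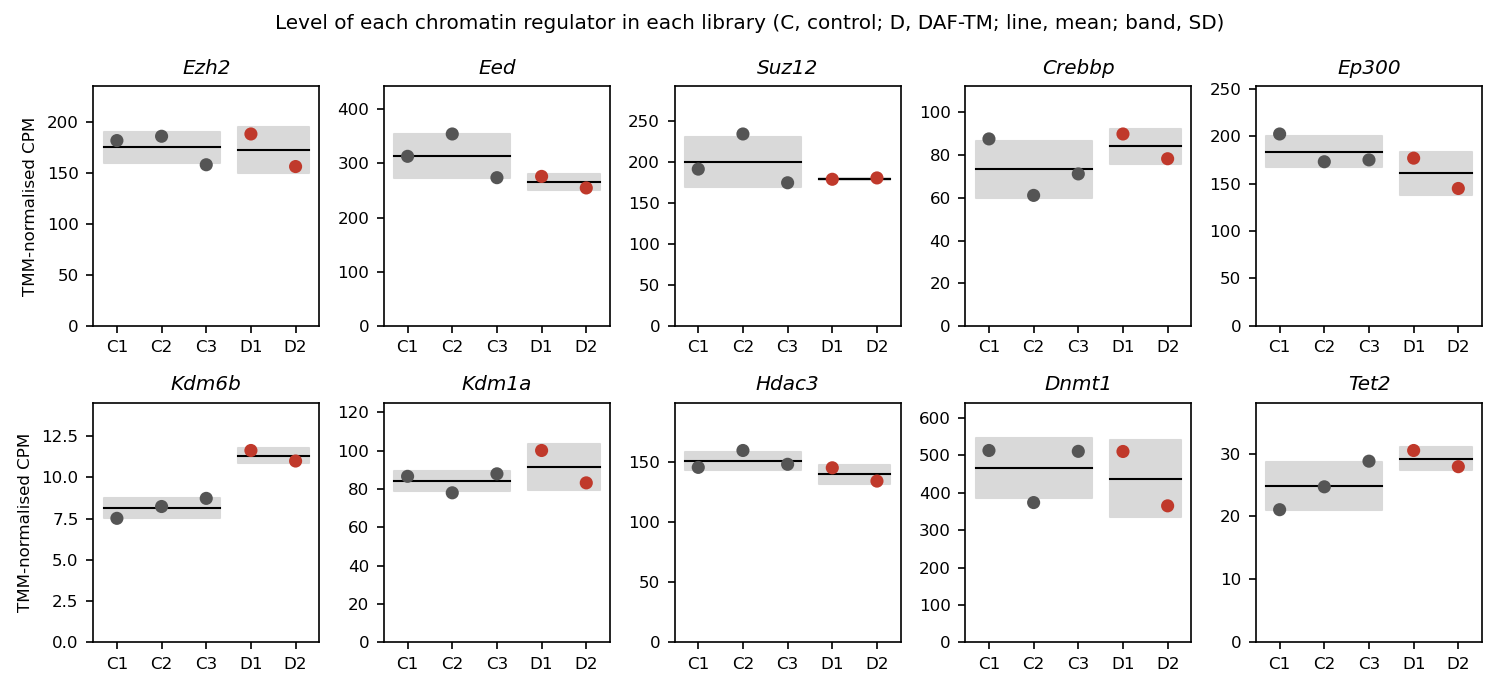
TMM-normalised CPM (y axis, from 0, its own scale per gene) of the 10 chromatin regulators in control libraries C1 to C3 and DAF-TM libraries D1 and D2 (x axis), with the group mean as a line and the SD as a band. The groups overlap for 8 genes; both DAF-TM points lie above the controls for Kdm6b and below them for Hdac3.

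Ezh2, the catalytic subunit of PRC2 (chr6:47530139-47595341, GRCm38), was level between the groups. It stood at 182, 186 and 158 CPM in control libraries 1 to 3 and at 188 and 156 in DAF-TM libraries 1 and 2. The DAF-TM libraries were the highest and the lowest of the 5, so the groups overlapped fully. The log2 fold change was -0.03 (SE 0.17, 95% interval -0.35 to 0.30, edgeR adjusted p = 0.99), and its sign turned with the scaling: it was 0.04 with upper-quartile factors. Its paralog Ezh1, which serves PRC2 in resting cells, stood at 38.6, 50.02 and 39.2 CPM in the controls, against 57.7 and 46.5 in the DAF-TM libraries (log2 fold change 0.29, SE 0.17, adjusted p = 0.93).

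Eed, which binds the methyl mark and stimulates the enzyme (chr7:89954654-89980983), stood at 313, 354 and 274 CPM in the controls, against 276 and 255 in the DAF-TM libraries. The 2 DAF-TM values were among the 3 lowest, and DAF-TM library 1 overlapped control library 3. Its log2 fold change was -0.24 (SE 0.17, interval -0.57 to 0.09, adjusted p = 0.94), and it ran from -0.31 to -0.15 with 1 library left out. Exons of Eed overlap those of E230029C05Rik on the other strand by 261 bases, and the strand setting of the counting is not given, so reads of the pair cannot be told apart there.

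Suz12, the scaffold subunit that holds the core together (chr11:79993106-80034123), stood at 191, 234 and 175 CPM in the controls, against 179 and 181 in the DAF-TM libraries. Both DAF-TM values lay within the control range. Its log2 fold change was -0.16 (SE 0.17, interval -0.48 to 0.17, adjusted p = 0.95), and it was -0.03 without control library 2. Of 9 further PRC2 genes, Ezh1 and accessory subunits such as Jarid2, none was called: 4 were positive and 5 negative, with a median of -0.14. Of 19 genes of PRC1, the complex that binds the Polycomb mark, none was called either (12 positive, 7 negative, median 0.03). With RLE factors 10 were positive and 9 negative, and with upper-quartile factors 15 and 4. Cbx2, a reader subunit with the lowest p of that list, had a log2 fold change of 0.26 (SE 0.19, adjusted p = 0.94), with 0.03 without control library 2 and 0.53 without control library 3.

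**Figure D2:**
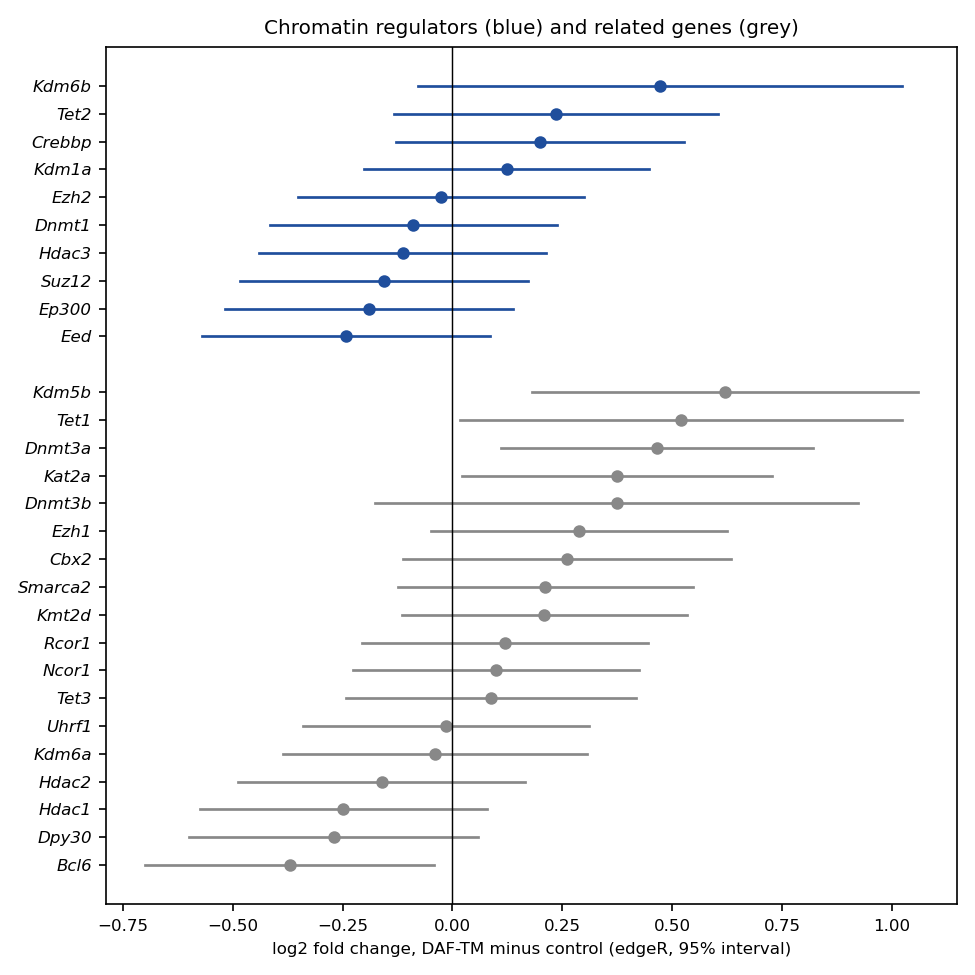
Log2 fold change of DAF-TM minus control (x axis) with its 95% interval from edgeR for the 10 chromatin regulators (blue) and 18 related genes (grey), sorted within each set (y axis). Every blue interval crosses 0, and Kdm6b has the widest, from -0.08 to 1.02.

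Kdm6b, the demethylase that removes the mark PRC2 writes (chr11:69398508-69413675), had the largest log2 fold change of the 10. It stood at 7.52, 8.24 and 8.73 CPM in the controls, against 11.6 and 11.0 in the DAF-TM libraries, from raw counts of 71, 97 and 64 and of 129 and 130. Both DAF-TM libraries lay above every control, an absence of overlap in that direction shared by 11.3% of all genes tested. The log2 fold change was 0.47 (SE 0.28, interval -0.08 to 1.02), which did not pass (edgeR adjusted p = 0.93). In the fits that left out 1 library it ran from 0.42 to 0.54. Exons of Kdm6b overlap by 286 bases those of the antisense transcript Kdm6bos, so part of a count this low could not be assigned to a strand. Exons on the other strand also overlap those of Suz12 (178 bases), Ezh2 (174) and Tet2 (43). The X-linked paralog Kdm6a, which is known to escape X inactivation, stood at 235, 151 and 114 CPM in the controls, against 153 and 171 in the DAF-TM libraries (log2 fold change -0.04, SE 0.18, adjusted p = 0.985; 0.04 with upper-quartile factors and 0.02 with limma-voom). Its highest value was in control library 1, which has high Xist, while DAF-TM library 2, with still higher Xist, stood at 171 CPM. Without control library 1 the log2 fold change of Kdm6a was 0.29, and with the Y-linked share as a covariate it was -0.26. Beyond that covariate, the part of sex in these values was not tested.

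Kdm1a, which encodes LSD1 (chr4:136550540-136602723), stood at 86.5, 78.0 and 87.9 CPM in the controls, against 100 and 83.1 in the DAF-TM libraries. DAF-TM library 1 was the highest of the 5 and DAF-TM library 2 lay within the control range. Kdm1a had a log2 fold change of 0.12 (SE 0.17, interval -0.20 to 0.45, adjusted p = 0.96). It was -0.02 without DAF-TM library 1. Rcor1, the CoREST scaffold that binds LSD1, gave 0.12 (SE 0.17, adjusted p = 0.96). Of 19 CoREST and demethylase genes none was called, with 12 positive, 7 negative and a median of 0.09. With RLE factors 10 were positive and 9 negative, and with upper-quartile factors 15 and 4. Kdm5b, a demethylase of an active H3 mark, had the lowest p of that list (edgeR unadjusted p = 0.0057, adjusted p = 0.47). It stood at 9.004, 14.7 and 14.7 CPM in the controls, against 18.2 and 21.1 in the DAF-TM libraries (log2 fold change 0.62, SE 0.22).

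Hdac3, on chromosome 18, stood at 145.4, 159 and 148 CPM in the controls, against 145.1 and 134 in the DAF-TM libraries. Both DAF-TM values lay below every control, although library 1 nearly equalled control library 1, and 9.02% of all genes tested showed no overlap in that direction. For Hdac3 the log2 fold change was -0.11 (SE 0.17, interval -0.44 to 0.21, adjusted p = 0.96), and -0.06 without DAF-TM library 2. Ncor1, a corepressor that activates HDAC3, gave 0.10 (SE 0.17, adjusted p = 0.97). Hdac1 stood at 464, 451 and 420 CPM in the controls, against 407 and 343 in the DAF-TM libraries (log2 fold change -0.25, SE 0.17, adjusted p = 0.94), and Hdac2 gave -0.16 (SE 0.17, adjusted p = 0.95). Bcl6, the repressor that recruits these complexes, stood at 287, 278 and 313 CPM against 214 and 239. Its log2 fold change of -0.37 (SE 0.17) had an unadjusted p of 0.027 and did not pass after adjustment (edgeR adjusted p = 0.795). Of 20 genes of deacetylase corepressor complexes, Bcl6 included, none was called, with 7 positive, 13 negative and a median of -0.08 (10 and 10, median -0.01, with upper-quartile factors).

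Crebbp, the acetyltransferase CBP (chr16:4081328-4213997), stood at 87.6, 61.1 and 71.2 CPM in the controls, against 89.9 and 78.3 in the DAF-TM libraries. DAF-TM library 1 was just above control library 1, and the groups overlapped. Crebbp had a log2 fold change of 0.20 (SE 0.17, interval -0.13 to 0.53, adjusted p = 0.95). It was 0.08 without control library 2, 0.09 without DAF-TM library 1 and 0.35 without control library 1. Ep300, its paralog p300 (chr15:81585351-81652077), stood at 202, 173 and 175 CPM in the controls, against 177 and 145 in the DAF-TM libraries. DAF-TM library 2 lay outside the control range, below it. This gave a log2 fold change of -0.19 (SE 0.17, interval -0.52 to 0.14, adjusted p = 0.95), which was -0.05 without DAF-TM library 2 and -0.35 without DAF-TM library 1. Of 12 further acetyltransferases and bromodomain readers none was called, with 5 positive, 7 negative and a median of -0.04 (0.03 with upper-quartile factors). Kat2a, the GCN5 acetyltransferase, had the lowest p of that list (log2 fold change 0.38, SE 0.18, edgeR unadjusted p = 0.037, adjusted p = 0.83).

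Dnmt1, the maintenance methyltransferase (chr9:20907209-20959888), stood at 512, 373 and 510 CPM in the controls, against 510 and 365 in the DAF-TM libraries. Each group held values near 510 and a value near 370, so the libraries split across the genotypes, with control library 2 and DAF-TM library 2 low. The log2 fold change was -0.09 (SE 0.17, interval -0.42 to 0.24, adjusted p = 0.97), and it was 0.13 without DAF-TM library 2. Uhrf1, which guides DNMT1 to newly copied DNA, showed the same low pair, at 436, 313 and 444 CPM in the controls, against 433 and 354 in the DAF-TM libraries (log2 fold change -0.01, SE 0.17, adjusted p = 0.996; its sign turned to 0.05 with upper-quartile factors). The ratio of Dnmt1 to Uhrf1 counts ran only from 1.03 to 1.19 over the 5 libraries.

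Tet2 (chr3:133463679-133545139) stood at 21.1, 24.7 and 28.8 CPM in the controls, against 30.5 and 27.9 in the DAF-TM libraries. DAF-TM library 2 lay within the control range and DAF-TM library 1 above it. For Tet2 this came to a log2 fold change of 0.24 (SE 0.19, interval -0.13 to 0.60, adjusted p = 0.95), and to 0.13 to 0.37 with 1 library left out. Among 14 further genes of DNA methylation that were tested, of 15 listed, none was called, with 8 positive, 6 negative and a median of 0.04. With upper-quartile factors 10 were positive and 4 negative. The de novo methyltransferase gene Dnmt3a stood at 24.5, 28.1 and 25.9 CPM against 34.1 and 38.2 (log2 fold change 0.47, SE 0.18, unadjusted p = 0.010, adjusted p = 0.61). Both DAF-TM values of Dnmt3a lay above every control, as did those of 11.3% of all genes tested. Dnmt3b gave 0.37 (SE 0.28, adjusted p = 0.94) and Tet3 0.09 (SE 0.17, adjusted p = 0.97). Tet1 gave 0.52 (SE 0.26, edgeR unadjusted p = 0.042, adjusted p = 0.85). Tet1 rested on DAF-TM library 2, at 17.2 CPM against 8.75 to 11.3 in the other 4 libraries, and without it the log2 fold change was 0.14.

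**Figure D3:**
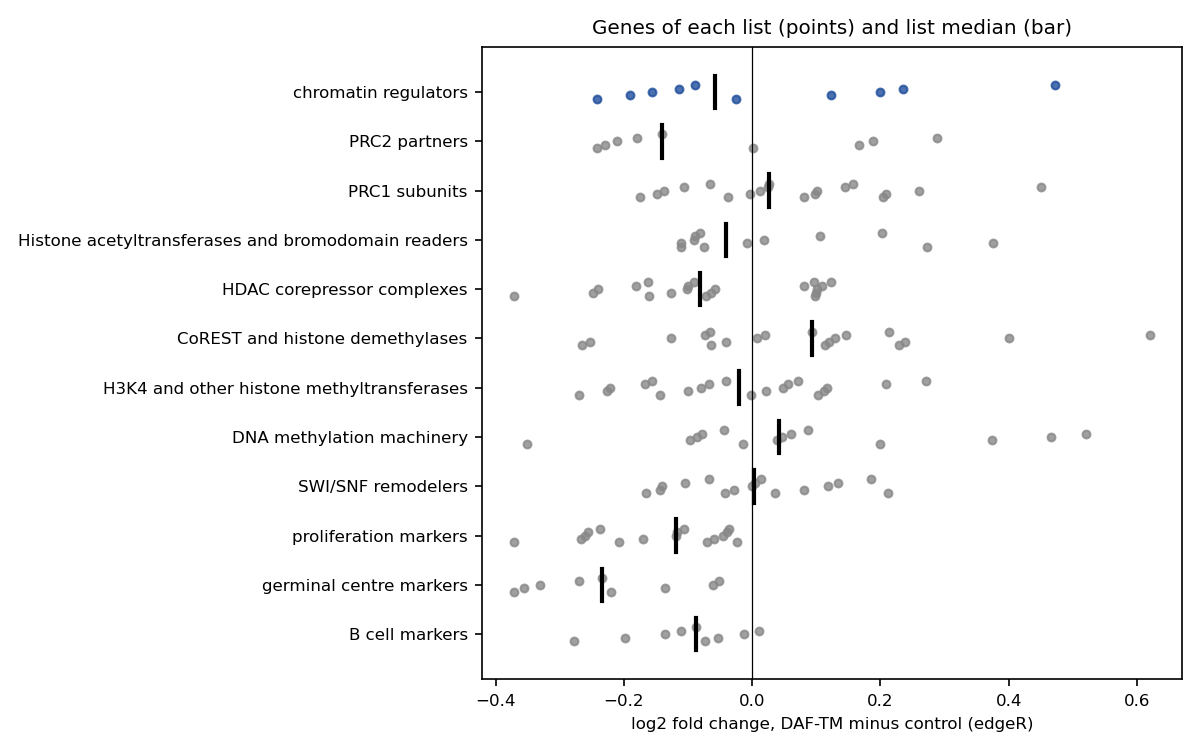
Log2 fold change of DAF-TM minus control (x axis) for each tested gene (points) of the chromatin regulators, 8 lists of related chromatin genes and 3 marker lists (y axis), with the list median as a bar. The chromatin medians lie between -0.14 and 0.09, and every point of the proliferation and germinal centre lists lies below 0 (11 of 16 and 7 of 9 with upper-quartile factors).

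The remaining chromatin lists gave no call either. Of 20 genes for other histone methyltransferases 9 were positive and 11 negative (median -0.02, and 0.05 with upper-quartile factors). Kmt2d, a writer of an enhancer mark and listed as Mll2, stood at 128, 81.4 and 98.9 CPM against 139 and 99.0 (log2 fold change 0.21, SE 0.17, adjusted p = 0.95). Dpy30, a core subunit of the same complexes, had the lowest p of that list (-0.27, SE 0.17, adjusted p = 0.94). Of 16 SWI/SNF remodeler genes 9 were positive and 7 negative (median 0.00, and -0.02 with RLE factors), and Smarca2, an ATPase of the complex, had the lowest p (0.21, SE 0.17, adjusted p = 0.95; 0.07 without DAF-TM library 1). Over the 129 genes tested in the 8 lists, edgeR called 0, DESeq2 called 0 and limma-voom called 0. At an unadjusted p under 0.05 edgeR gave 6 of the 129, against 5.74% of all genes tested. No overlap between the groups was shown by 25 of the 129, a share close to the 20.3% of all genes tested. The median log2 fold change of the 129 was 0.00.

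Ratios of counts within a library do not depend on scaling between libraries, and 10 pairs were computed. The ratio of Crebbp to Ep300 was 0.433, 0.353 and 0.407 in control libraries 1 to 3 and 0.508 and 0.541 in DAF-TM libraries 1 and 2. Both DAF-TM libraries lay above every control, with a log2 difference of the group means of 0.40. The ratio of Ezh2 to Kdm6b was 24.2, 22.6 and 18.1 in the controls and lower, at 16.2 and 14.2, in the DAF-TM libraries. That of Ezh2 to Ezh1 was 4.71, 3.72 and 4.03 against 3.26 and 3.36. Within the PRC2 core, Ezh2 to Eed was 0.581, 0.525 and 0.578 in the controls, against 0.682 and 0.614 in DAF-TM libraries 1 and 2. Ezh2 to Suz12 overlapped between the groups, at 0.949, 0.793 and 0.904 against 1.05 and 0.865. Eed to Suz12 overlapped too and stayed between 1.41 and 1.63. Dnmt1 to Tet2 also overlapped, at 24.3, 15.1 and 17.7 against 16.7 and 13.1, as did Kdm6b to Kdm6a and Dnmt1 to Uhrf1. Hdac3 to Hdac1 was 0.313, 0.353 and 0.352 in the controls and higher, at 0.357 and 0.391, in the DAF-TM libraries. With groups of 3 and 2 an exact two-sided permutation test cannot go below 0.2, so it could call no pair whatever the size of the difference, and the ratios are given as a description. Among single genes tested, 20.3% showed no overlap between the groups, and the share over all ratios was not computed. Ratios that share Ezh2 are not independent of each other.

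**Figure D4:**
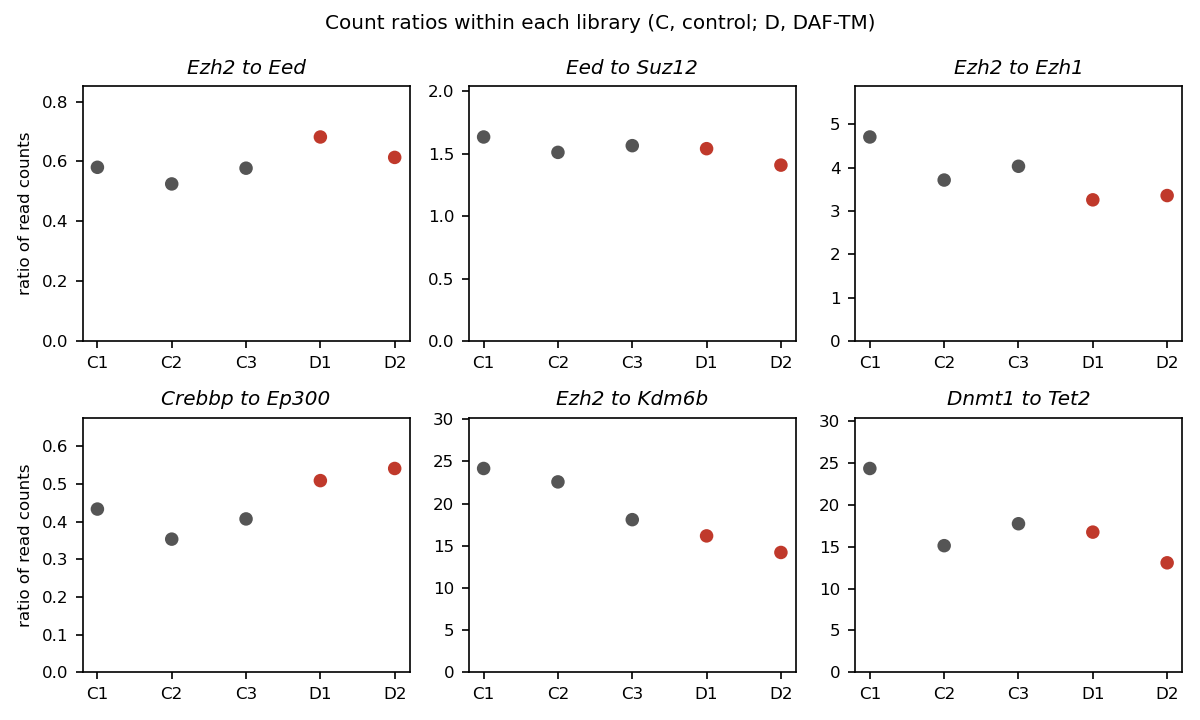
Ratio of raw read counts (y axis, from 0) for 6 gene pairs in control libraries C1 to C3 and DAF-TM libraries D1 and D2 (x axis). The DAF-TM points lie above the controls for Crebbp to Ep300 and Ezh2 to Eed, and below them for Ezh2 to Ezh1 and Ezh2 to Kdm6b; the groups overlap for Eed to Suz12 and Dnmt1 to Tet2.

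Markers of the sorted cells and of others are given beside these values. The 9 B cell markers and 9 germinal centre markers were all present. The germinal centre genes summed to 3707 to 4433 CPM in the controls, against 3424 and 3505 in the DAF-TM libraries. Their log2 fold changes were negative for 9 of 9 (median -0.23, and 7 of 9 with upper-quartile factors), with none called. Below every control in both DAF-TM libraries lay 6 of the 9, against 9.02% of all genes tested. All 16 proliferation markers, genes of cycling cells such as Mki67, were also negative (11 with upper-quartile factors, median -0.12 with TMM, none called), with sums of 7322 to 8157 CPM in the controls, 7612 in DAF-TM library 1 and 6343 in DAF-TM library 2. Over all genes tested 0.373% were called higher and 11.3% lay above every control in both DAF-TM libraries. Of 7 genes of resting B cells 4 were called higher and 5 were positive (median 1.247). Their sums were 413 to 459 against 642 and 475. Of 9 natural killer cell markers 7 were called higher and all 9 were positive (median 1.54), with sums of 31.4 to 48.2 against 73.7 and 126. Of 12 macrophage and dendritic cell markers 5 were called higher, 10 were positive (median 1.02) and 9 lay above every control in both DAF-TM libraries. Their sums overlapped (141 to 202 against 160 and 236), with Lyz2 (32.6 to 95.7 CPM over the 5 libraries) and Flt3 (45.3 to 58.6) holding much of them. Of 10 T cell markers 2 were called higher, 9 were positive (median 0.84) and 8 lay above every control, while their sums (282 to 314 against 276 and 287) were mostly Lck, which was lower in DAF-TM libraries 1 and 2 (213 and 224 CPM) than in the controls (249.5 to 285). Of 6 plasma cell markers 1 was called higher, 5 were positive (median 0.39) and 2 lay above every control. Their sums (2847 to 4786 against 2815 and 3846) were mostly Igj, the J chain gene (2426 to 4317 CPM over the 5 libraries). Neutrophil markers (8, none called, 6 negative, median -1.66) summed to 75.9 to 251 against 22.1 and 58.0. Erythroid ones summed to 12.6 to 28.8 against 17.5 and 21.6, mostly from the beta globin gene Hbb-bs, listed as Beta-s (8.37 to 20.6 CPM over the 5 libraries). Of all these markers with a row, Hba-a1 and Hba-a2 were at 0 in every library and no other was at 0 in any. The part of these shifts in the values of the chromatin regulators was not tested, and in bulk samples fewer cells of a type and less RNA per cell cannot be told apart.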

How the data were processed

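RNA of sorted cells (10 ng per sample) was made into oligo-dT primed SMART-Seq v4 libraries, per the labels' protocols, and 12 libraries shared 1 lane of single-end reads of 100 nt. Reads went through HISAT2, featureCounts and bcl2fastq, per the submitters' processing notes, which give no order, and the file header names mm10. Tool versions, annotation, strand setting and multi-mapping rules are not stated there. Raw counts, 1 row per symbol and without normalization, were deposited by the authors. The kit adds no molecular identifiers, so counts are not independent molecules.

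In R 4.3.3, edgeR 4.0.16 with limma 3.58.1 was run with a filterByExpr filter, TMM factors, robust glmQLFit and glmQLFTest (two-sided), Benjamini-Hochberg adjusted over 18767 genes, threshold 0.05, with group as the term. It had 3 residual degrees of freedom and a median of 1153 prior ones, so p-values and SE rest mainly on the spread pooled over genes. SE is the log2 fold change divided by the root of F. The procedure was tested on simulated data. Alternatives comprised limma-voom, DESeq2 1.42.0, upper-quartile or RLE scaling, no filter or one of 1 CPM in 3 libraries, a block for replicate number, a covariate for the Y-linked share, and leaving out each library. Lengths and positions came from GENCODE M21 (GRCm38, the same build as mm10). Of the listed symbols not in the table, 11 were matched through RefSeq synonyms, and Hbb-bt was not. The members and lists were chosen with earlier results of these data known. Named genes were all members, a fixed set of paralogs and partners (1 is not reported here), and the gene of lowest p in each list of related genes, since none was called.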

Additional observations from a re-analysis of the deposited data

How the results depend on the processing

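The member count stayed at 0 in all 14 alternatives, as did the count of related chromatin genes, and no member had an unadjusted p under 0.05 in any. Of 140 member values under these alternatives 133 kept their direction, and 7 of the 10 members never changed sign. Over all genes 77 were called, against 39 with upper-quartile factors, 32 with DESeq2, 51 with limma-voom and 14 to 118 in fits without 1 library. No scaling moved the median of all genes by more than 0.08. The replicate block gave 61 calls, and 105 with the merged DAF-TM library taken as number 3, an alternative chosen after seeing the data. Nothing in the labels pairs the libraries by number. Deviations correlated at -0.11 for number 1, -0.25 for number 2 and 0.16 for number 3 (the merged library), but those of 2 DAF-TM libraries mirror each other, so these values cannot settle pairing. With 1 library left out, log2 fold changes ran from -0.17 to 0.10 for Ezh2, -0.023 to 0.25 for Kdm1a, -0.36 to 0.13 for Dnmt1, -0.24 to 0.29 for Kdm6a, -0.0167 to 0.24 for Rcor1, -0.17 to 0.12 for Uhrf1 and -0.0609 to 0.43 for Kmt2d. Upper-quartile factors turned Ezh2 (0.0432), Kdm6a (0.041) and Uhrf1 (0.0454). Limma-voom turned Kdm6a (0.021), the replicate block Uhrf1 (0.0841), and the block with number 3 Ezh2 (0.0173). The cause was not tested. Leaving out a DAF-TM library leaves 1, assumed to vary like the controls. Kdm6b, with 64 to 130 reads per library, is the member whose depth limits precision most.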
